A study of Homo sapiens with 6 samples.

Results

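The ZNF genes of human chromosome 19 were examined in MOLM14 cells, an established line of acute myeloid leukaemia (AML) of monocytic type that carries FLT3-ITD, after treatment with the FLT3 inhibitor HSN748. Members were the genes named ZNF followed by digits alone whose exons the deposited table places on chromosome 19, and 173 of the 13244 genes in the table met this rule, which uses no measured value. RNA-Seq had been carried out on 6 cultures, 3 given the vehicle DMSO (replicates 1, 2 and 3) and 3 given 2 nM HSN748 (replicates 7, 8 and 9), each for 24 hours. All cultures are of this 1 line, and the study describes them as independent biological triplicates. Of the members, 103 lay on the plus strand and 70 on the minus strand.

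Most of these genes encode C2H2 zinc finger proteins, in which each finger is a short loop held by a zinc ion and neighbouring fingers together read a stretch of DNA. In the majority the fingers follow a KRAB domain, which binds the corepressor TRIM28 (KAP1) and through it brings the histone methyltransferase SETDB1, the HP1 proteins and histone deacetylases to DNA, most often at transposable elements. The family grew by repeated gene duplication, so that its members stand side by side in clusters on chromosome 19, and the 3′ ends of many of the genes carry repressive histone methylation placed with the help of ZNF274, itself a member.

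More of these genes were higher after HSN748 than lower, and most of the changes were small. Of the 169 members with enough counts to test, 74 (43.8%) rose and 34 (20.1%) fell at an adjusted p under 0.05 in edgeR's quasi-likelihood test, against 36.6% of all 13084 genes tested that rose and 36.5% that fell. Changes beyond 1 on the log2 scale were made by 25 members that rose (14.8%, against 17% of all genes) and by 10 that fell (5.92%, against 14.9%). The median log2 fold change of HSN748 over DMSO was 0.22 for the members and 0.01 for all genes. The ZNF genes of the other chromosomes gave nearly the same figures. Of 191 tested, 88 rose (46.1%) and 47 fell (24.6%), with a median of 0.21, whereas the other 713 genes tested on chromosome 19 had 247 higher, 242 lower and a median of -0.01. No test of the difference between the lists was run, and the counts give nothing particular to chromosome 19.

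**Figure D1:**
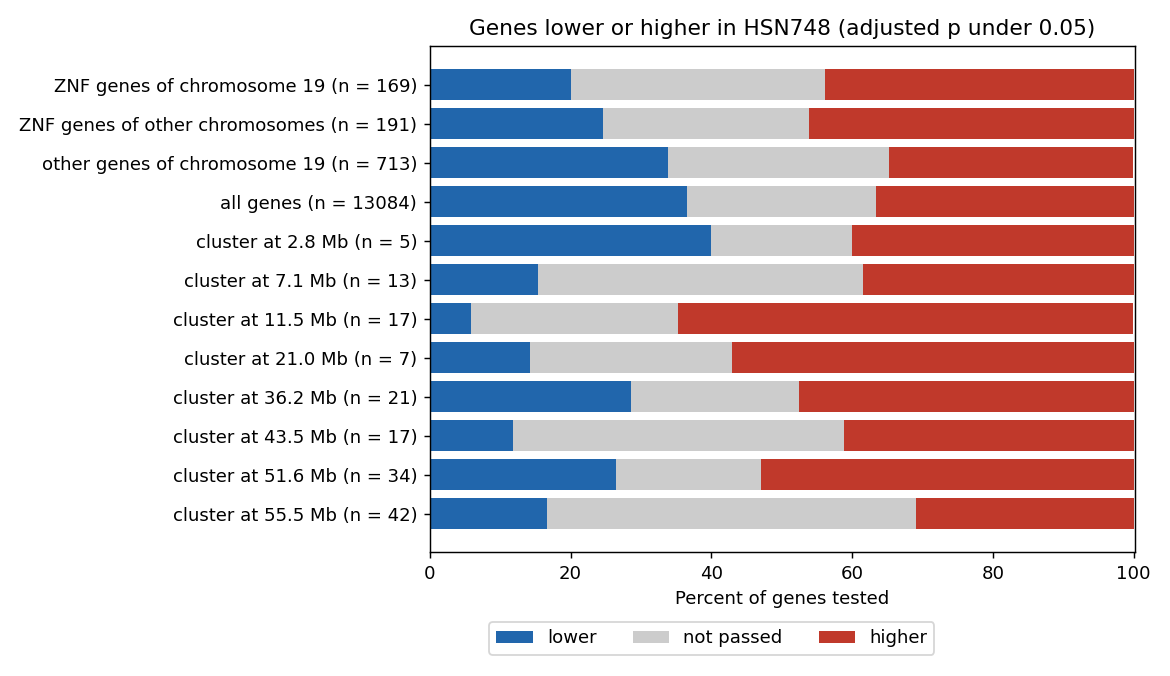
Percent of the genes tested that were lower (blue), not passed (grey) or higher (red) in HSN748 at an adjusted p under 0.05, for the members, the ZNF genes of other chromosomes, the other genes of chromosome 19, all genes and the 8 clusters of at least 5 members, each named by its start in Mb. The members and the ZNF genes elsewhere both have a lower bar (20.1% and 24.6%) shorter than that of all genes (36.5%).

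The size of these counts rests on how the libraries are scaled, because counts give a gene's share of the RNA and no scale for RNA per cell. The main scaling (TMM) set the median of all genes near 0. Scaling to 12 reference genes moved the median of all genes to 0.49 and gave 120 members higher and 11 lower, beside 56.6% of all genes higher and 19.2% lower. A scaling moves every gene by nearly the same amount, so the members' distance from the median of all genes, 0.22, could not change with it. The 74 members called higher kept that call under each of the 5 scalings, 3 of which shift all genes upward, and of the 34 called lower, 11 kept it under the reference genes and 8 took a positive sign. In such bulk RNA, fewer cells of a type and less RNA per cell cannot be told apart.

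Across the 6 libraries the totals ran from 35277785 to 59279430 counts, and the members together made up from 0.382% to 0.456% of the counts in DMSO and from 0.476% to 0.524% in HSN748. The libraries of 1 group did not scatter evenly over the members. DMSO replicate 3 gave the lowest DMSO level in 119 of 169 members (70.4%, against 42.4% of all genes), and DMSO replicate 2 the highest in 118 (69.8%, against 42.2%). Without DMSO replicate 3, 73 members were higher (42.7%, against 37.2% of all genes) and 37 lower (21.6%, against 36.8%). Of 10 markers listed for AML of monocytic type 9 were measured, and their summed level was between 1361 and 1401 CPM (a gene's counts per 1000000 counts of its library, the total adjusted by TMM) in DMSO and between 2857 and 3014 CPM in HSN748. FLT3 made up much of that rise (mean 396 CPM in DMSO and 1150 CPM in HSN748), CSF1R rose by 4.37 on the log2 scale, MPO fell by 2.26, and CD33 and HOXA9 did not pass. CD14, 1 of the 10, and the 8 listed markers of other blood lineages were looked for but had no values. Of 6 non-blood markers 4 were measured, summing to 217 to 219 CPM in DMSO and 599 to 665 CPM in HSN748. Almost all of that sum was PECAM1, which blood cells also express, at 209 to 212 CPM in DMSO and 587 to 654 CPM in HSN748, while KRT8, KRT18 and COL1A1 lay under 7 CPM in every culture. The part of these marker shifts in the members' result was not tested.

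The promoters of 6 members are shown because these genes mark the greatest rises, in all tested members (ZNF841 and ZNF844) and in an abundant member (ZNF493), the largest fall among well-measured members (ZNF850), and a pair of neighbours whose start regions overlap and that moved in opposite directions (ZNF829 and ZNF568). The sequences are from RefSeq (GRCh38.p14), from 200 bases before to 30 bases after the gene's start, 5′ to 3′ on the gene's strand. Capitals mark matches on either strand to an ETS motif (CCGGAAG), an Sp motif (GGGCGG) or an NF-Y motif (CCAAT). E-box, CRE, NRF1 and YY1 letters were also searched and were not in these windows.
ZNF844 (chr19:12064531-12064760, plus strand): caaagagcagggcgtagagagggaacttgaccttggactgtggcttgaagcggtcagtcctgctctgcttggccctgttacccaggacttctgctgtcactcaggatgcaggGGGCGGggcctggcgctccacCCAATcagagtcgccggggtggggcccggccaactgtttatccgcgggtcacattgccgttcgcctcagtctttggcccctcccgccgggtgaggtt
ZNF841 (chr19:52095736-52095965, minus strand): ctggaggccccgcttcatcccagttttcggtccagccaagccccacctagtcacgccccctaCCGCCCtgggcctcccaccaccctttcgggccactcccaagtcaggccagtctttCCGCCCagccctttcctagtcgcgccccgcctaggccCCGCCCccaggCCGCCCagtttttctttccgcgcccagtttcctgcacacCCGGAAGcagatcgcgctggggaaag
ZNF493 (chr19:21396933-21397162, plus strand): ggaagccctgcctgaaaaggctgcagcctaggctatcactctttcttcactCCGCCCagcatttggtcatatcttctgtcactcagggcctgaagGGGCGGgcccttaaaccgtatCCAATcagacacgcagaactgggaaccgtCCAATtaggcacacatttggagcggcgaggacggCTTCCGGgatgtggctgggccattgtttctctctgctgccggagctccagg
ZNF850 (chr19:36772778-36773007, minus strand): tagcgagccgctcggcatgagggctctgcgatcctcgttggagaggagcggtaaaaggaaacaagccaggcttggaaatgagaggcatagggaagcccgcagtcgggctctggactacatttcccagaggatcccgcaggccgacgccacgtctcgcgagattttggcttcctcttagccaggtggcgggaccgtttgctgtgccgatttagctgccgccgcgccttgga
ZNF829 (chr19:36916262-36916491, minus strand): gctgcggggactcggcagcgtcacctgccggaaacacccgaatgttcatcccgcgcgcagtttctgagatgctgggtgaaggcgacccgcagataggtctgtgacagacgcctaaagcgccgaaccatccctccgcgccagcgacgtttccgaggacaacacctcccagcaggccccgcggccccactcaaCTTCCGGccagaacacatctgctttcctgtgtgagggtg
ZNF568 (chr19:36916132-36916361, plus strand): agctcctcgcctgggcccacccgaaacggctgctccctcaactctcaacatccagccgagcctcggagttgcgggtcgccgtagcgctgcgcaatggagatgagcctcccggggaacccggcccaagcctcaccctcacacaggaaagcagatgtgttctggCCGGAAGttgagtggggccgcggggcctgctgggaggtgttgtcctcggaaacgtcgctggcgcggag
The ZNF850 window held none of the motifs. The windows of ZNF829 and ZNF568 share 100 bases read from opposite strands, and their ETS letters are the same bases of the genome, from 36916294 to 36916300.

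Promoter windows of 300 bases (250 before to 50 after the start) were matched by symbol for 153 of the 173 members. The ETS letters CCGGAAG, on either strand, were in 63 of these (41.2%), against 40.7% of 162 ZNF promoters on other chromosomes, 18.5% of the promoters of other chromosome 19 genes, 20% of those of genes tested and 10.7% of all 27305 promoters. Sp letters were in 69.3% of the members' windows, against 68.9% for genes tested and 44.6% for all. NF-Y letters (CCAAT) were in 47.7%, against 37.0% and 35.7%. YY1 letters (AAGATGGC) were in 8.5%, against 5.65% and 3.03%. For the E-box (CACGTG) the share was 5.23%, against 10.3% and 7.43%, for the CRE (TGACGTCA) 4.58%, against 3.28% and 1.98%, and for NRF1 (GCGCATGC) 3.92%, against 5.74% and 3.27%. The searches overlap only where letters happen to adjoin. Members with and without the ETS letters had similar medians. Of 61 tested members with a match 26 rose and 10 fell (median log2 fold change 0.20), and of 88 without one 37 rose and 20 fell (median 0.23). Over all genes tested, 36.6% rose and 36.5% fell.

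Along the chromosome the members formed 17 groups separated by more than 1 Mb, of which 8 held at least 5 members. The positions are those of the deposited table, whose build is not given in the sources used here, and 114 of the 172 members found in RefSeq by symbol had the same start in GRCh38. The 8 clusters held 159 members, of which 156 were tested, 70 rising and 30 falling (44.9% and 19.2%, against 36.6% and 36.5% of all genes). The median log2 fold change was above that of all genes in each of them. It was 0.37 in the cluster of 34 members from 51.6 to 53.5 Mb (18 rose and 9 fell), 0.35 in that from 36.2 to 37.8 Mb (10 rose and 6 fell of 21), 0.32 in that from 11.5 to 12.6 Mb (11 rose and 1 fell of 17) and 0.32 in that from 21 to 21.5 Mb (4 rose and 1 fell of 7). In the cluster from 43.5 to 45.1 Mb 7 rose and 2 fell of 17 (median 0.24), and in that from 2.8 to 2.9 Mb 2 rose and 2 fell of 5 (median 0.18). The lowest medians were those of the cluster from 55.5 to 58.5 Mb, the largest by membership, with 13 higher and 7 lower of 42 (median 0.13), and of that from 7.1 to 9.8 Mb, with 5 higher and 2 lower of 13 (median 0.11). The remaining 14 members lay in 9 small groups, and of the 13 tested 4 rose and 4 fell. Differences between clusters were not tested.

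**Figure D2:**
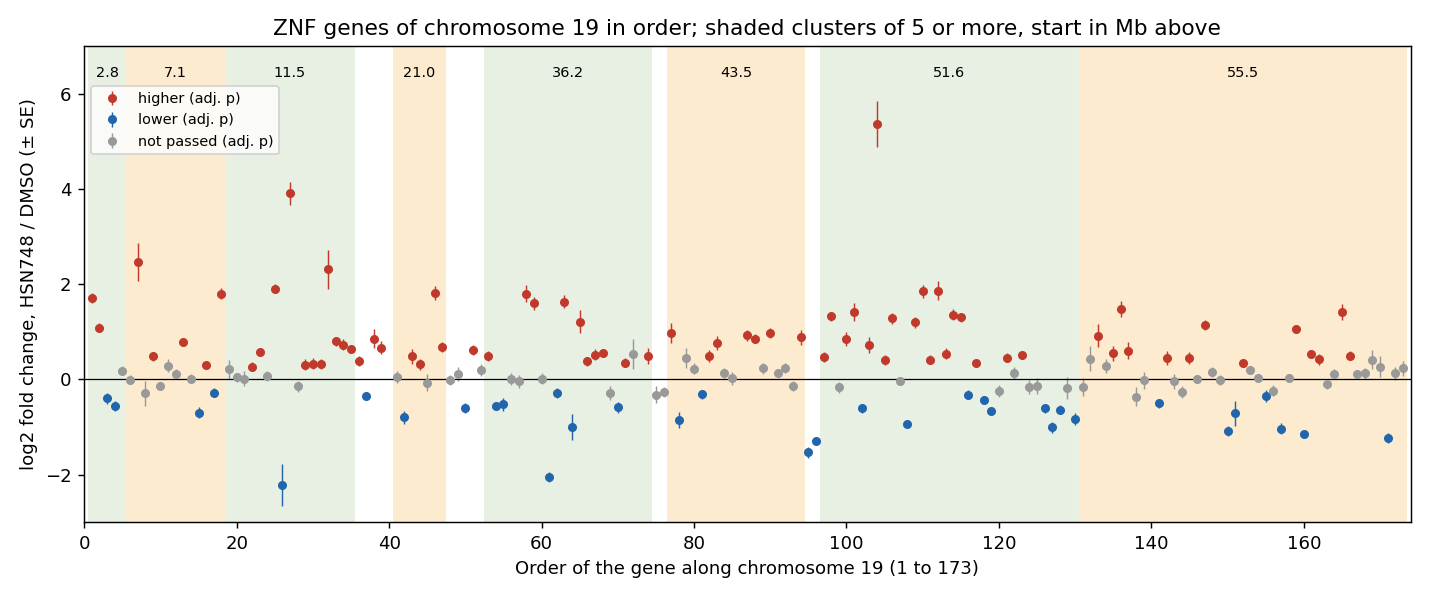
Log2 fold change of HSN748 over DMSO (± SE) for the 169 tested members in order along chromosome 19, coloured by call, with the 8 clusters shaded and the start of each in Mb above. Genes that rose and genes that fell stand side by side in most clusters, and the highest point, at 5.36, is ZNF841.

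Neighbouring members were compared within clusters. Among 152 pairs of adjacent tested members within a cluster, 32 pairs both rose, 7 both fell and 25 went opposite ways, while in 88 pairs 1 or both genes did not pass. The log2 fold changes of neighbours had a Pearson r of -0.04 over the 152 pairs, in which each gene stands in up to 2 pairs and all values come from the same 6 libraries. The longest runs of rising genes held 7 members each. The run from 12.27 to 12.63 Mb held ZNF44, ZNF799, ZNF443, ZNF709, ZNF564, ZNF490 and ZNF791, with log2 fold changes from 0.31 to 2.31. That from 52.34 to 52.69 Mb held ZNF610, ZNF880, ZNF528, ZNF534, ZNF808, ZNF701 and ZNF83, from 0.42 to 1.86. The longest run of falling genes held 3, ZNF845, ZNF525 and ZNF765, from -1.01 to -0.61, of which ZNF525 alone passed as lower with the reference genes. ZNF709, ZNF564, ZNF490, ZNF443 and ZNF799 share from 25.4% to 92.0% of their transcript sequence with another gene in windows of 50 bases, so that the counting could have split reads among them, and their values are uncertain.

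The genes named for the size of their change were taken from members whose groups did not overlap, so that their separation is a description. ZNF844 had the largest rise among members with a mean of at least 1 CPM. Its level was 0.642, 0.684 and 0.358 CPM in DMSO replicates 1, 2 and 3 and 9.22, 9.91 and 6.90 CPM in HSN748 replicates 7, 8 and 9. All HSN748 cultures lay far above all DMSO cultures, and the log2 fold change was 3.91 ± 0.24 (SE; n = 3 per group; edgeR adjusted p = 1.10e-06). ZNF763, nearby in the same cluster, went from 6.78, 7.53 and 6.86 CPM to 26.4, 28.3 and 24.5 CPM, a log2 fold change of 1.90 ± 0.10, again with no overlap. Of the windows of ZNF763, 54.1% occur in another annotated gene, and its value is uncertain for that reason. In contrast ZNF878, which lies between them, had 1.32, 1.68 and 1.32 CPM in DMSO and 0.233, 0.611 and 0.121 CPM in HSN748, a log2 fold change of -2.22 ± 0.45 (edgeR adjusted p = 0.00185). ZNF878 was the most lowered of all tested members but was named after its values were seen, since its mean lay under 1 CPM.

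ZNF841 showed the greatest fold change of any member and was also named after its values were seen. It had 3 counts in the 3 DMSO libraries together and 131 in the HSN748 libraries, or 0.0347, 0.0236 and 0 CPM against 1.14, 1.01 and 0.888 CPM. The ratio was 45.8 with a 95% exact interval from 15.3 to 225 that covers counting error only. The gene was thus near the limit of detection in DMSO and at about 1 CPM after treatment.

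In the cluster from 51.6 to 53.5 Mb, ZNF534 had 0.625, 0.708 and 0.607 CPM in DMSO and 2.47, 2.44 and 2.16 CPM in HSN748 (log2 fold change 1.86 ± 0.19). ZNF880 had 1.68, 1.51 and 1.49 CPM in DMSO and 5.79, 5.21 and 5.94 CPM in HSN748 (1.85 ± 0.14). Both genes were low in every DMSO culture and more than 3-fold higher in every HSN748 culture than in the DMSO mean. ZNF83, among the 5 members with the highest level per length, rose from 48.6, 51.2 and 43.7 CPM to 120, 125 and 108 CPM (1.30 ± 0.09). Other genes of the same cluster went down. ZNF480 had 126, 132 and 117 CPM in DMSO and 64.8, 65.1 and 65.9 CPM in HSN748 (-0.94 ± 0.07), and ZNF525 had 15.2, 17.2 and 13.5 CPM against 7.38, 7.62 and 7.83 CPM (-1.01 ± 0.11). Neither overlapped between the groups, as the choice of genes required.

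ZNF493, in the cluster from 21 to 21.5 Mb, was the strongest rise among abundant members. Its level was 48.8, 49.7 and 34.5 CPM in DMSO and 155, 172 and 138 CPM in HSN748, or 3.5-fold higher in HSN748 (log2 fold change 1.80 ± 0.15, edgeR adjusted p = 5.99e-06). ZNF714 in the same cluster moved the other way, from 146, 159 and 115 CPM to 76.7, 91.6 and 73.6 CPM (-0.80 ± 0.13). Scaled to the reference genes, the fall of ZNF714 missed the threshold (-0.32). In each of these genes the groups were separate, as the choice of genes required, and DMSO replicate 3 was the lowest of the DMSO cultures.

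The cluster from 36.2 to 37.8 Mb held the member with the greatest fall among those at or above 1 CPM. ZNF850, with 29 fingers the longest finger array of the family here, had 38.1, 39.4 and 31.1 CPM in DMSO and 8.68, 9.01 and 8.60 CPM in HSN748. Every treated culture was below every control, as the choice of genes required. The log2 fold change was -2.05 ± 0.11 (edgeR adjusted p = 5.38e-07). ZNF461, which lies shortly before ZNF850, had 10.2, 10.1 and 8.68 CPM in DMSO and 28.9, 34.4 and 24.6 CPM in HSN748 (1.60 ± 0.14). ZNF382, a KRAB repressor described as a tumour suppressor, had 1.84, 2.08 and 1.52 CPM in DMSO and 5.42, 7.28 and 6.32 CPM in HSN748 (1.80 ± 0.17). ZNF345 had 5.90, 7.29 and 6.23 CPM in DMSO and 22, 21.3 and 16.8 CPM in HSN748 (1.63 ± 0.14). Thus 3 genes of this cluster were 3.04-fold to 3.5-fold higher and 1 was 4.13-fold lower.

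**Figure D3:**
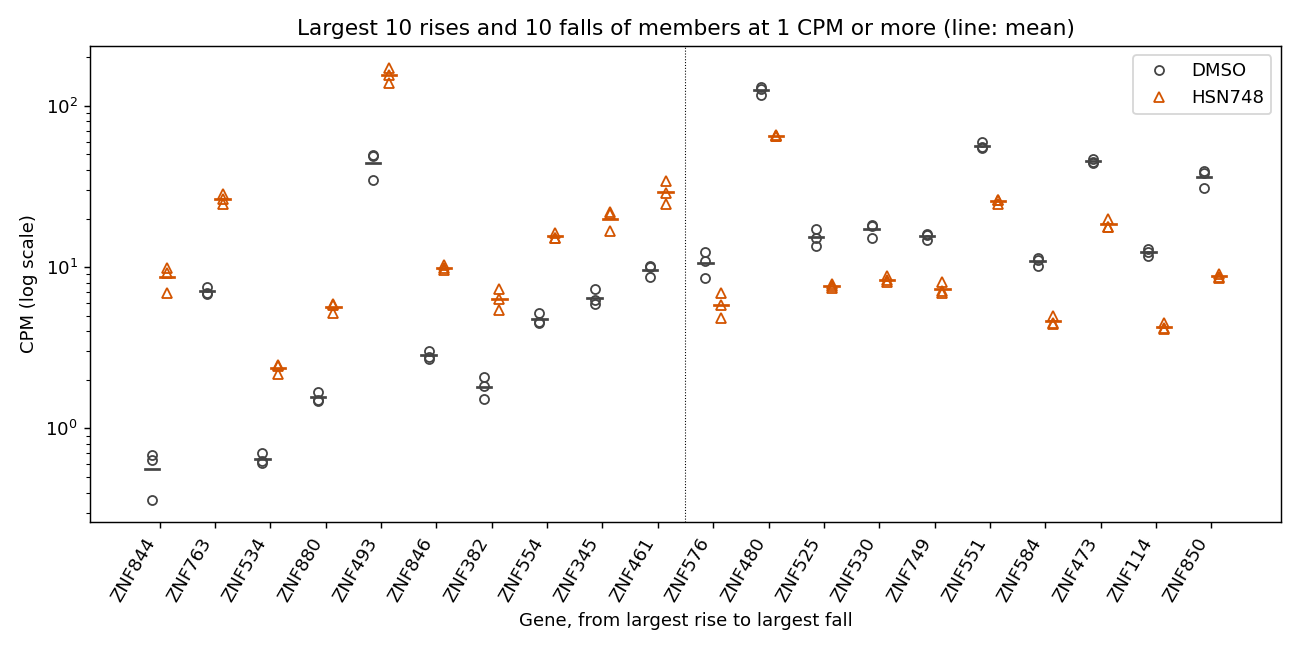
Level in CPM, on a log axis, in each DMSO (circles) and HSN748 (triangles) culture for the 10 largest rises and 10 largest falls among called members that averaged 1 CPM or more and were selected for separate groups, with a line at each mean. The genes run from ZNF844 at the left (0.358 to 0.684 CPM against 6.90 to 9.91 CPM) to ZNF850 at the right (31.1 to 39.4 CPM against 8.60 to 9.01 CPM).

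At the start of the chromosome ZNF554 rose from 4.55, 5.17 and 4.52 CPM to 15.2, 16.3 and 15.2 CPM (1.71 ± 0.11), and near 9.8 Mb ZNF846 rose from 3.04, 2.69 and 2.78 CPM to 10.4, 9.54 and 9.81 CPM (1.80 ± 0.12). Among the falls were members of small groups. ZNF473, which takes part in the processing of histone pre-mRNA through the U7 snRNP, had 44.4, 45.0 and 46.6 CPM in DMSO and 17.7, 17.7 and 19.8 CPM in HSN748 (-1.30 ± 0.08, edgeR adjusted p = 1.39e-06). ZNF114 had 12.9, 11.8 and 12.5 CPM in DMSO and 4.53, 4.12 and 4.18 CPM in HSN748 (-1.54 ± 0.11). Both were lower in all 3 treated cultures, a separation that the choice of genes required. In the cluster from 55.5 to 58.5 Mb, ZNF584 fell by 1.23 on the log2 scale, ZNF551 by 1.15, ZNF749 by 1.08 and ZNF530 by 1.03, with SEs from 0.08 to 0.11 and DMSO levels of 10.2 to 11.3, 54.8 to 59.7, 14.8 to 16 and 15.2 to 18.2 CPM. Each had HSN748 levels below all its DMSO levels, as the choice also required. The tenth of the falls, ZNF576 in the cluster from 43.5 to 45.1 Mb, has no KRAB box and had 10.9, 8.61 and 12.3 CPM in DMSO and 6.91, 4.84 and 5.79 CPM in HSN748 (-0.86 ± 0.17).

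Per length, ZNF146 was the most abundant member, with a mean of 84.9 FPKM (CPM divided by the gene length in kilobases). This gene encodes a protein made almost entirely of fingers, without a KRAB domain. It had 387, 428 and 357 CPM in DMSO and 265, 266 and 261 CPM in HSN748 (log2 fold change -0.57 ± 0.08, edgeR adjusted p = 0.000219), a fall that missed the threshold when scaled to reference genes (-0.09). The next in level were ZNF266 (36.8 FPKM), ZNF700 (29.9 FPKM), ZNF317 (24.8 FPKM) and ZNF83 (23.3 FPKM). ZNF266 rose from 108 to 117 CPM in DMSO to between 180 and 206 CPM in HSN748 (0.77 ± 0.07). ZNF700 (0.08 ± 0.10) and ZNF317 (-0.13 ± 0.07) did not pass the test, and ZNF317 had a positive value, 0.35, with the reference genes. The median of the tested members was 4.11 FPKM, against 8.01 FPKM for all genes tested.

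Members with a known role moved in both directions. Of 36 genes listed by role, 27 were members, and 26 of these members were tested. Among these 14 rose, 3 fell and 9 missed the threshold, beside 43.8% of all members that rose and 20.1% that fell and 36.6% and 36.5% of all genes. ZNF224, a KRAB repressor that works with WT1 in haematopoietic cells, rose from 41.5, 44.8 and 35.0 CPM to 75.7, 84.5 and 70.2 CPM (log2 fold change 0.92 ± 0.11), with 47.9% of its exon length overlapping a gene on the opposite strand. ZNF568, whose mouse counterpart represses a placental Igf2 transcript, had 1.02, 1.39 and 0.937 CPM in DMSO and 2.78, 3.08 and 1.96 CPM in HSN748 (1.21 ± 0.24). Every HSN748 culture exceeded every DMSO culture in both genes. ZNF580 rose by 1.49 ± 0.17, ZNF432 by 0.72 ± 0.16, ZNF160 by 0.51 ± 0.08 and ZNF558 by 0.48 ± 0.09. ZNF420 (Apak), a regulator of p53, rose by 0.38 ± 0.10, ZNF581 by 0.60 ± 0.18, ZNF44 by 0.31 ± 0.12 and ZNF440 by 0.27 ± 0.09. ZNF581 missed the threshold without HSN748 replicate 9 (adjusted p = 0.0638), and ZNF440 without DMSO replicate 1 (0.0879) or HSN748 replicate 8 (0.0671), in edgeR. ZNF44 missed it without DMSO replicate 3 (adjusted p = 0.0879) or HSN748 replicate 7 (0.0590), 8 (0.0935) or 9 (0.0578).

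Several of the listed members bind transposable elements. ZNF808, which silences MER11 elements in the pancreas, rose from 29.8, 31.5 and 25 CPM to 45.2, 37.8 and 42.6 CPM (0.54 ± 0.11). ZNF417 and ZNF587 are near-identical genes that repress HERV-K. ZNF417 rose by 0.49 ± 0.10 and ZNF587 did not pass (0.12 ± 0.10), while 40.2% and 37.9% of their windows are shared, so the division of reads between them is uncertain. ZNF611, which binds SVA elements, had 31.9, 34.4 and 28.2 CPM in DMSO and 23.2, 26.2 and 26.3 CPM in HSN748 (-0.32 ± 0.10, edgeR adjusted p = 0.0177). Its call was lost without DMSO replicate 1 or HSN748 replicate 7 and with total count (-0.20) or upper-quartile (-0.11) scaling, and its sign turned with the reference genes (0.16). ZNF93, which represses L1 elements, had 1 count in all DMSO libraries and 0 in all HSN748 libraries and was not tested. ZNF274, which brings SETDB1 to the ZNF genes, had 22.8, 22 and 22.7 CPM in DMSO and 24.6, 24.8 and 23.8 CPM in HSN748 (0.12 ± 0.08, edgeR adjusted p = 0.203). It passed as higher with the total count, upper-quartile and reference scalings. ZNF675, ZNF816, ZNF136, ZNF180, ZNF134 and ZNF444 did not pass, with log2 fold changes from -0.15 to 0.14. With upper-quartile or reference-gene scaling ZNF816, ZNF134 and ZNF587 passed as higher, ZNF816 also without DMSO replicate 2 (0.26), and with the reference genes ZNF675, ZNF180 and ZNF444 passed as higher too.

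Pairs of members that start head to head, within 1000 bases of each other on opposite strands, allowed the response of genes that share a start region to be set side by side. Among the 5 such pairs, both genes rose in 1 pair, the genes moved in opposite directions in 3, and in the last only the plus-strand gene passed. ZNF490 (0.73 ± 0.12) and ZNF791 (0.64 ± 0.08), with starts 107 bases apart, rose together, although 70.9% of the windows of ZNF490 are shared with another gene and its value is uncertain. ZNF829 and ZNF568, 38 bases apart and with the overlapping sequence printed above, differed. ZNF829 had 0.937, 1.27 and 1.08 CPM in DMSO and 0.677, 0.531 and 0.424 CPM in HSN748 (-1.01 ± 0.27, edgeR adjusted p = 0.00839), whereas ZNF568 rose. ZNF790 fell from between 23.9 and 28.9 CPM to between 20.5 and 21.7 CPM (-0.29 ± 0.10) beside the rise of ZNF345, and ZNF569 fell from between 41.8 and 57.3 CPM to between 31.3 and 34.7 CPM (-0.59 ± 0.12) beside ZNF570, which rose from between 17.7 and 21.7 CPM to between 24.8 and 26.2 CPM (0.35 ± 0.10). ZNF529, 37 bases from ZNF382, had 70.0, 79.8 and 55.9 CPM in DMSO and 66.0, 73.2 and 60.3 CPM in HSN748 (-0.05 ± 0.13), and its groups overlapped. The counting is not stated to use strand and the library kit does not mark it, so reads from genes that overlap on opposite strands cannot be told apart. Among these pairs the genes of ZNF790 and ZNF345 overlap, by 429 bases, without overlap of their exons. The fall of ZNF790 missed the threshold without DMSO replicate 2 (edgeR adjusted p = 0.0633) or HSN748 replicate 7 (0.0889), 8 (0.0624) or 9 (0.0901) and with upper-quartile or total count scaling, and with the reference genes its value was positive (0.19) while the falls of ZNF829 (-0.53) and ZNF569 (-0.11) missed it.

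**Figure D4:**
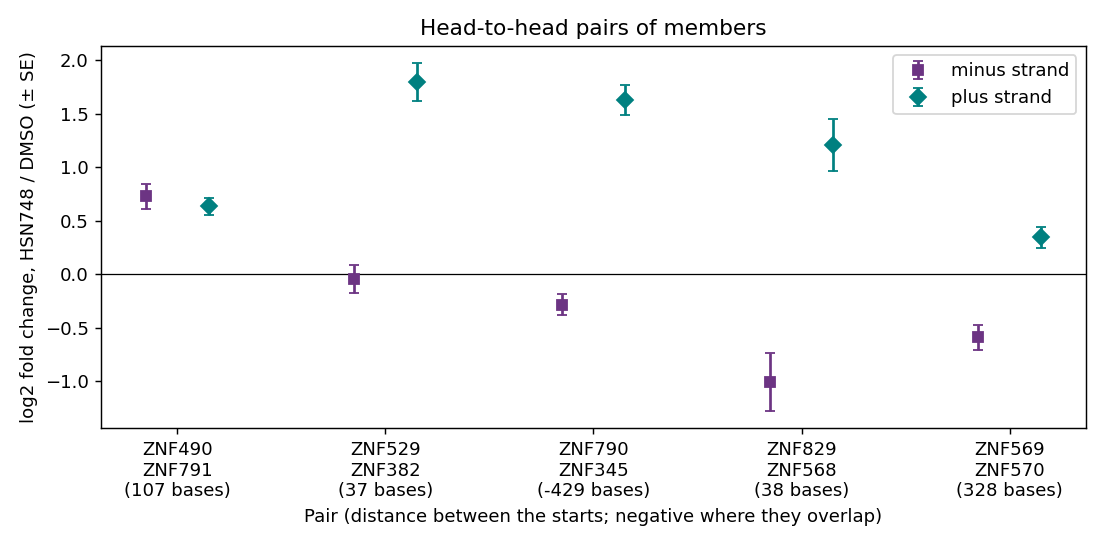
Log2 fold change of HSN748 over DMSO (± SE) of the minus-strand gene (squares) and the plus-strand gene (diamonds) in the 5 head-to-head pairs, with the distance between the starts in bases. The values are close in ZNF490, an uncertain one, and ZNF791 (0.73 and 0.64) and lie on opposite sides of 0 in ZNF829 and ZNF568 (-1.01 and 1.21).

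Members were also set out by the kind of protein they encode. A KRAB box was found in 145 of 172 members whose longest reading frame was translated. Of the 141 tested with one, 65 rose and 30 fell (median log2 fold change 0.22), and of 27 without one, 8 rose and 4 fell (median 0.21). Over all genes tested, 36.6% rose and 36.5% fell. The fingers numbered from 0 to 29, with a median of 12. Members with 15 to 29 fingers had 27 higher and 6 lower of 48 (median 0.36), those with 12 to 14 had 16 and 10 of 39 (0.18), those with 9 to 11 had 15 and 10 of 42 (0.05), and those with at most 8 had 15 and 8 of 39 (0.23). Spearman's rho between the number of fingers and the log2 fold change was 0.09 over 168 genes, measured in the same libraries. By level, changes beyond 1 were most frequent among the 43 members with the lowest FPKM, with 13 rises (30.2%) and 3 falls (6.98%). Among the 42 with the highest there were 2 rises (4.76%) and 1 fall (2.38%). Over all genes tested, 17% rose and 14.9% fell by over 1.

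The genes through which KRAB proteins act moved in both directions. Of the 19 partners measured, 12 fell, 6 rose and MORC2 (0.12 ± 0.08) did not pass, beside 36.5% of all genes lower and 36.6% higher. TRIM28, the corepressor, had 441, 376 and 503 CPM in DMSO and 210, 204 and 248 CPM in HSN748 (log2 fold change -0.99 ± 0.12, edgeR adjusted p = 7.63e-05). The HP1 genes fell too, CBX1 by 1.12, CBX3 by 1.16 and CBX5 by 0.46. HDAC2 fell by 0.96, CHD4 by 0.64 and HDAC1 by 0.35, while CHD3, another NuRD subunit, rose by 0.48 ± 0.06. The maintenance methyltransferase DNMT1 had 593 to 637 CPM in DMSO and 176 to 192 CPM in HSN748 (-1.77 ± 0.07), and its partner UHRF1 273 to 296 CPM and 55.3 to 56.2 CPM (-2.37 ± 0.07). SETDB1, in contrast, rose from between 149 and 150 CPM to between 182 and 194 CPM (0.34 ± 0.06), and its stabilising partner ATF7IP rose by 0.77 ± 0.11. Of the HUSH complex, MPHOSPH8 rose by 0.87 ± 0.10 and PPHLN1 (-0.41 ± 0.07) and TASOR (-0.32 ± 0.10) fell. MORC3 (0.34) and ATRX (0.67) rose and DAXX (-0.74 ± 0.23) fell. DAXX was at a low level, 2.10 to 2.92 CPM in DMSO and 1.17 to 1.90 CPM in HSN748. With the reference genes 7 partners were higher, 6 lower and 6 not passed, and HDAC1 (0.13), TASOR (0.16), PPHLN1 (0.07) and CBX5 (0.02) took positive values without passing. HDAC1, TASOR and DAXX missed the threshold with upper-quartile scaling, TASOR with the total count, and MORC2 passed as higher with these scalings and with the reference genes. Leaving out 1 culture took MORC3 (DMSO replicate 1, or HSN748 replicate 7 or 8), DAXX (HSN748 replicate 7 or 8) and TASOR (DMSO replicate 1, or HSN748 replicate 7 or 9) above the threshold on p, to edgeR adjusted p from 0.0505 to 0.0763. TRIM28, CBX1, CBX3, HDAC2, DNMT1 and UHRF1 were lower under every scaling. The part of these changes in the members' result was not tested.

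**Figure D5:**
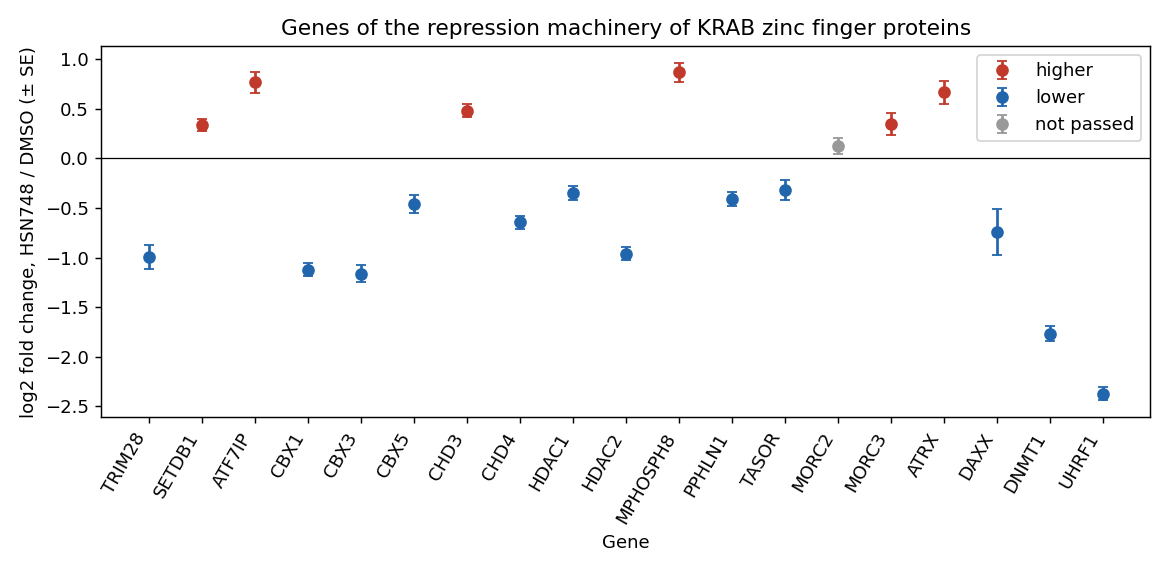
Log2 fold change of HSN748 over DMSO (± SE) of the 19 measured genes of the KRAB repression machinery, coloured by call. The lowest points are UHRF1 (-2.37) and DNMT1 (-1.77), and the highest is MPHOSPH8 (0.87).

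The remaining members were covered by counts. Of the 61 members that did not pass, the log2 fold changes ran from -0.36 to 0.53, and 2 had an unadjusted p under 0.05. The groups of cultures did not overlap in CPM for 118 of the 169 tested members (69.8%, against 75.4% of all genes tested). Of the 108 members that passed, only ZNF550 overlapped (28.4 to 37.3 CPM in DMSO and 24.3 to 29.1 CPM in HSN748, log2 fold change -0.35 ± 0.12), and its call was lost without DMSO replicate 1 or 2 or HSN748 replicate 8 or 9 (edgeR adjusted p from 0.0728 to 0.107) and with total count (-0.22) or upper-quartile (-0.14) scaling, while its value was positive with the reference genes (0.13). Besides ZNF93, the members with too few counts to test were ZNF582 (4 counts in the DMSO libraries and 36 in the HSN748 libraries), ZNF284 (20 and 19) and ZNF607 (15 and 37). For a single gene, the exact permutation test over 3 and 3 cultures has a smallest two-sided p of 0.1 and is not given.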

How the data were processed

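Libraries of the 6 MOLM14 cultures were prepared from Trizol-extracted RNA by a low-input kit without strand information. In their processing notes the submitters list bcl2fastq and STAR. For the counting program, annotation, genome build and gene filter this information is not given in the sources used here. Unnormalised counts of reads for each gene were deposited by the authors, together with log2 CPM and log2 FPKM values, whose labels are exchanged in the table (the values labelled as one equal the other after scaling by gene length to within 2.78e-17), and the fold changes, p-values and FDR of their own comparison, which were not used. Only the counts entered the tests.

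Counts were filtered with filterByExpr (13084 of 13244 genes kept), scaled with TMM (factors 0.946 to 1.07) and tested with the quasi-likelihood F test of edgeR 4.0.16 in R 4.3.3 with Benjamini-Hochberg adjustment over all genes tested. Treatment was the only term. The biological coefficient of variation was 11.2%. Genes rose or fell at an adjusted p under 0.05; the study's further threshold, a log fold change beyond 1, was read as base 2 and counted separately. FPKM was computed from the counts and the deposited gene lengths. Depth was 35277785 to 59279430 counts per library. The p-values set the difference between the groups against the spread between these cultures, estimated with the help of all genes.

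Genes named were the 10 largest called changes in each direction among members averaging 1 CPM or more whose groups did not overlap (so that separation of these groups was required, not found), the 5 highest members by FPKM, the most changed member in each direction of each cluster, and lists by role and of KRAB partners. Members and lists were chosen with earlier results of these data known. Fingers, KRAB boxes (a profile searched with pyhmmer 0.12.3) and shared windows of 50 bases were computed from GENCODE v29 transcripts and promoters were taken from RefSeq (GRCh38.p14). Alternatives were DESeq2 1.42.0, limma-voom (limma 3.58.1), other scalings and filters, other member rules, other gaps between clusters and leaving out each culture. Plots used matplotlib 3.10.9.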

Additional observations from a re-analysis of the deposited data

How the results depend on the processing

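No paired analysis was possible because the groups share no replicate number. With 12 reference genes as the scale, 120 members were higher, 11 lower, 49 higher by over 1 and 3 lower by over 1 on the log2 scale, with a median of 0.70. Upper-quartile factors gave 5 lower by over 1 and a median of 0.43, and the total count 6 and 0.35. These factors move all genes (medians 0.21, 0.13 and 0.49 for upper-quartile, total count and reference genes). The median was 0.26 with a mean of at least 1 CPM. After that filter the scale was set anew, and ZNF490 moved from 0.73 to 0.76 and TRIM28 from -0.99 to -0.96. The median was 0.20 without members whose exons overlap another gene. It was 0.19 without the 21 members sharing over 20% of their windows, a choice made after seeing the data. Leaving out each culture in turn gave 67 to 80 members higher, 29 to 37 lower, 26 to 29 higher by over 1, 8 to 10 lower by over 1 and medians from 0.21 to 0.23. In the same fits 33.3% to 37.2% of all genes were higher and 32.6% to 37.0% lower. RLE factors, DESeq2, limma-voom, no filter and names with a letter after the digits kept every count within 1.5 times of the main one. With the reference genes ZNF317 (0.35), ZNF675 (0.46), ZNF180 (0.35) and ZNF444 (0.47) turned positive and passed, and ZNF101 (0.14) and ZNF611 (0.16) turned positive without passing. The cause was not tested beyond these shifts of scale. Gaps of 0.5 Mb gave 20 groups and of 2 Mb gave 11, against 17. Members with few counts, such as ZNF841, ZNF709 and ZNF358, are limited by depth.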

Other observations

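Of the members outside the naming rule, ZNF358 had 0.173, 0.189 and 0.0827 CPM in DMSO and 0.677, 0.691 and 1.17 CPM in HSN748 (log2 fold change 2.46 ± 0.40, edgeR adjusted p = 0.000508), and ZNF709 had 0.121, 0.165 and 0.303 CPM against 0.887, 0.638 and 1.25 CPM (2.31 ± 0.42, edgeR adjusted p = 0.000932). The groups did not overlap in either gene, both were named after their values were seen, and 30.3% and 92.0% of their windows are shared with another gene, so that their values are uncertain. ZNF56, which RefSeq names as a pseudogene, was measured at 1.77, 1.75 and 2.07 CPM in DMSO and 4.16, 3.16 and 2.75 CPM in HSN748 (0.85 ± 0.20). Its span encloses ZNF506, on the opposite strand, without overlap of their exons. Shared windows were not computed for ZNF56, and its value is uncertain. ZNF121, without a KRAB box, fell from 159, 179 and 134 CPM to 96.6, 107 and 88.1 CPM (-0.70 ± 0.12), and ZNF507 from 92.7, 101 and 77.4 CPM to 61.9, 59.5 and 56.6 CPM (-0.61 ± 0.10). ZNF57 (-0.55 ± 0.10) and ZNF101 (-0.34 ± 0.09) were also lower and ZNF575 (0.98 ± 0.22), ZNF181 (0.62 ± 0.10) and ZNF333 (0.39 ± 0.11) higher. Each was named as the most changed in its direction in its group. ZNF333 was alone in its group, and ZNF101 and ZNF181 were the only calls in their direction in groups of 4 and 2. Of the exon length of ZNF333, 17.1% overlaps a gene on the opposite strand, so its value is uncertain. With reference-gene scaling ZNF57, ZNF121 and ZNF507 missed the threshold and ZNF101 took a positive value. The fall of ZNF101 also missed it with upper-quartile (-0.14) and total count (-0.22) scaling.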
